A study of Mus musculus with 12 samples.

Results

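TRAJ37 is 1 of the J segments that V(D)J recombination can join to a V segment to make the variable part of TCRα. Its clonotypes are described here in newly developed Treg from the thymus of wt, Il2° and Il15° mice. Rows with the same V segment, J segment and CDR3 residues were taken as 1 clonotype, and all rows assigned to TRAJ37 with a CDR3 in frame were included. TRAJ37 made up 768 of the 20615 in-frame clonotypes of the series and 10249 of its 190549 in-frame UMIs. A UMI is a random tag given to each Tcra cDNA, so that reads with the same tag count as 1 molecule. The 768 clonotypes carried 599 different CDR3 amino acid sequences, and 172 of them were seen as 1 UMI in all.

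The cells were CD4+CD8−Thy1.1+GFP+ thymocytes, 100000 per mouse, sorted from individual mice aged 3 weeks. All mice were on a B6 background with a Rag2-Gfp transgene, a Foxp3-Thy1a reporter, a transgenic TCRβ chain (Kaa) and a heterozygous Tcra null mutation. There were 4 wt mice, 4 mice lacking Il2 (Il2°) and 4 mice lacking Il15 (Il15°), the wt mice being littermates. GFP marks cells that expressed Rag2 recently, and Thy1.1 marks expression of Foxp3, the transcription factor that defines Treg. Because the TCRβ chain is fixed, differences in specificity rest on TCRα, and the repertoire is that of Treg which can pair with this 1 chain. The tables hold Tcra sequences alone, so the sort could not be checked against marker genes. The libraries held 7625 to 25980 UMIs, of which 94.5% to 96.6% were in frame. In each library 3 UMIs correspond to 0.0115% to 0.0393%.

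The CDR3 of TCRα is encoded by the 3′ end of the V segment, the 5′ end of the J segment and the junction between them. There, nucleases remove bases and terminal transferase adds bases without template before the ends are joined. The Tcra locus recombines repeatedly within 1 cell, so that V segments near the J cluster tend to be used with J segments at its 5′ end before both move outward. The germline J part decides the last residues of the loop, while the junction decides the residues before them, which commonly face the peptide.

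TRAJ37 is a segment of 60 bases on the plus strand of chr14:54181518-54181577 (GRCm38, GENCODE M21), an exon of the gene Traj37. Of its bases, 29 belong to the CDR3 and are shown in capitals, and the remainder encodes the framework that follows. They give the residues TGNTGKLIF after the 2 bases TA, which end the codon before them. The germline 3′ ends of the V segments that were joined to TRAJ37 most often start here at the codon of the conserved cysteine.
TRAJ37: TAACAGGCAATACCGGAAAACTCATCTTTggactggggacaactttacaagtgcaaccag
TRAV4D-3: tgtgctgctgagg
TRAV12-3: tgtgctctgagtga
With the J part complete, the codon before TGNTGKLIF ends in TA and can encode only I, L or V within an open frame. In the 5022 UMIs with the full germline J part, that codon was ATA in 74.7%, TTA in 11.03%, CTA in 8.12% and GTA in 6.15%.

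The junctions of the leading clonotypes follow, because the clonotypes differ from each other within these few bases. The capitals mark bases that belong to neither the V part, as the deposited tables end it, nor the germline TRAJ37 part. Each is the most frequent nucleotide sequence of its clonotype.
TRAV4D-3 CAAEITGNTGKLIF: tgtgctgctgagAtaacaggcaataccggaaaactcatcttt
TRAV4D-3 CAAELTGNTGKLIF: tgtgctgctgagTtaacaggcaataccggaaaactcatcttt
TRAV4D-3 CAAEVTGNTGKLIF: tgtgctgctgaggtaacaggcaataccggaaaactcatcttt
TRAV4D-3 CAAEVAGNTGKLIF: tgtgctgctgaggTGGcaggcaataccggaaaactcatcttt
TRAV12-3 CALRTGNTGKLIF: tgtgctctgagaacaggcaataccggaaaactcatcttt
TRAV12-3 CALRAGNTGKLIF: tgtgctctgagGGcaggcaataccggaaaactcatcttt
TRAV6D-7 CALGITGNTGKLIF: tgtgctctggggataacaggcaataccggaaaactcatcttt
The first 3 sequences share the V part up to the codon of the acidic residue E and differ in the single base before TA, which makes the residue I, L or V. The third and the TRAV12-3 clonotype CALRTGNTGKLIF needed no base beyond the V and J parts. For the TRAV6D-7 clonotype this holds only by the deposited end of V. The V part deposited for another of its sequences differs in a base, so the V part shown may not all be germline. The sequence shown for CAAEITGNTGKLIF made up 1369 of its 1572 UMIs and was present in 12 of 12 libraries, among 6 nucleotide sequences that encode it. The sequence shown for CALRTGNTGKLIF made up 629 of its 878 UMIs, among 12.

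TRAJ37 was the 8th most used of the 43 J segments seen in frame, by its mean share over the 12 libraries. In wt Treg it took 5.68%, 5.42%, 6.79% and 5.49% of the UMIs of a library. In Il2° Treg it took 4.72%, 4.12%, 4.69% and 4.29%. The Il2° libraries all lay below the lowest wt library. In Il15° Treg the shares were 5.51%, 4.54%, 4.10% and 5.05%, which overlap with both other genotypes. The 95% Wilson interval of a single library, which covers counting error only, ran from 3.86% to 4.77% in Il2° replicate 4, the smallest library, and from 5.41% to 5.97% in wt replicate 1, the largest. The means were 5.85% ± 0.64 (SD, n = 4 each) in wt Treg, 4.45% ± 0.30 in Il2° Treg and 4.80% ± 0.61 in Il15° Treg. In sorted cells measured in bulk, fewer cells with a TCR and less Tcra RNA per cell cannot be told apart.

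Whether the lack of either cytokine goes with another use of TRAJ37 was tested on the UMI counts of 40 J segments with edgeR. The log2 fold change of TRAJ37 in Il2° over wt was −0.38 (SE 0.11), with an adjusted p of 0.0537 in edgeR's quasi-likelihood test. At a threshold of 0.05, 0 of 40 J segments passed (percent called 0), 8 had an unadjusted p under 0.05, and DESeq2 called 3, TRAJ37 among them with an adjusted p of 0.0241. The exact 2-sided Mann-Whitney test of the 4 against 4 shares gave p = 0.0286, the smallest that this design allows. Of the 40 segments, 7.5% were lower in every Il2° than in every wt library. Without wt replicate 3, the library with the highest share, the log2 fold change was −0.26 (adjusted p = 0.139, edgeR), and without wt replicate 1, wt replicate 2 or Il2° replicate 4 the adjusted p was 0.0125, 0.0431 or 0.0333. The lower share of the most abundant TRAJ37 clonotype in Il2° Treg was known when TRAJ37 was chosen. The tests of Il2° against wt that include it are therefore a description. With that clonotype left out the log2 fold change was −0.18 (adjusted p = 0.372, edgeR), and with each clonotype counted once −0.07 (adjusted p = 0.954, edgeR). For Il15° over wt the log2 fold change was −0.22 (SE 0.13, adjusted p = 0.372, edgeR) and the exact Mann-Whitney p was 0.114. For Il15° over Il2° the log2 fold change was 0.07 (SE 0.10, adjusted p = 0.691, edgeR) and the exact p was 0.686. In these comparisons 2 and 4 of the 40 segments passed (percent called 5 and 10), TRAJ37 not among them.

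The share of 3 J segments varied over the 12 libraries most like that of TRAJ37, among the 23 with a mean share of at least 1%. They were TRAJ32 with Spearman's rho 0.846 (Pearson's r 0.843), TRAJ34 with 0.790 (0.807) and TRAJ30 with 0.636 (0.625). These are descriptions over 12 libraries of 3 genotypes, whose shares are parts of 1 total.

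**Figure D1:**
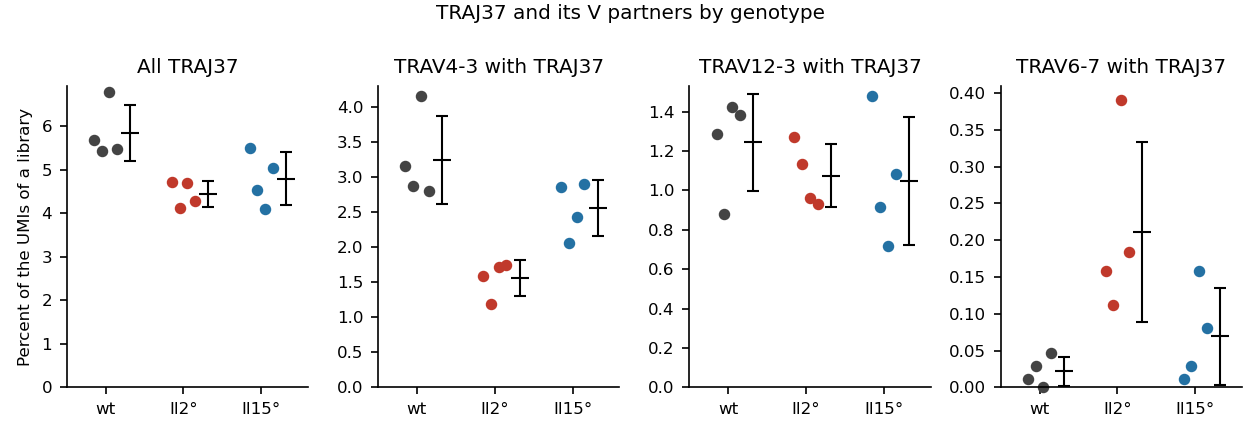
Percent of the UMIs of a library (y axis, a scale for each panel from 0) that carry TRAJ37, and TRAJ37 joined to TRAV4-3, TRAV12-3 or TRAV6-7 with their copies, by genotype. Each point is 1 mouse and the bars give mean and SD (n = 4). For TRAV4-3 the Il2° mice lie between 1.18% and 1.74%, below all wt mice, and for TRAV6-7 they lie between 0.113% and 0.390%, above all wt mice.

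A pair of V segments made up most of the partners of TRAJ37. V segments with several copies in the locus were grouped by name, so that TRAV4-3 stands for TRAV4-3, TRAV4D-3 and TRAV4N-3. The coding sequences of TRAV4D-3 and TRAV4N-3 did not differ in the 331 bases compared, and TRAV4D-3 was the copy named for 4753 of the 5088 UMIs. TRAV4D-3 and TRAV4-3 differed in 8 of 331 bases and TRAV12-3 and TRAV12N-3 in 12 of 353, so that merging also pools segments that differ. TRAJ37 was found with 40 V groups, of which TRAV4-3 and TRAV12-3 held at least 5% each. TRAV4-3 was the V partner in 47.9% ± 10.7 of the TRAJ37 UMIs of a library against 23.1% ± 3.4 of the UMIs with any other J segment (SD, n = 12). TRAV12-3 was the partner in 22.3% ± 3.7 against 6.93% ± 1.25. Both were higher among TRAJ37 than among other J segments in 12 of 12 libraries. The mean differences were 24.8 and 15.4 percentage points, each with p = 0.000488 in an exact 2-sided sign-flip permutation test, adjusted p = 0.000488 over the 2 groups, the smallest that 12 libraries can give. Both groups were taken for their share within TRAJ37, which is 1 side of this contrast, and the other groups were not tested. The p-values therefore describe these 2 groups alone. The excess did not rest on abundant clonotypes alone: with each clonotype counted once, TRAV4-3 held 36.99% against 20.5%, and TRAV12-3 held 16.9% against 9.67%. The next partner, TRAV13-1, held a mean of 4.40% of TRAJ37 against 1.04% of other J segments.

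**Figure D2:**
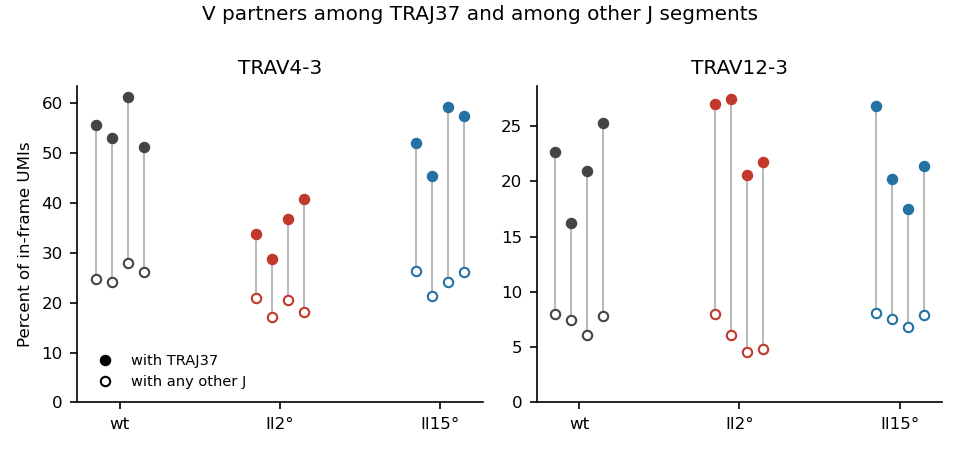
Percent of in-frame UMIs (y axis, from 0) with TRAV4-3 or TRAV12-3 among TRAJ37 (filled points) and among all other J segments (open points), with a line for each mouse, by genotype. In all 12 mice the filled point lies above the open one, and for TRAV4-3 the filled points of Il2° mice lie between 28.8% and 40.7% against 51.1% to 61.2% in wt mice.

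The pair of TRAV4-3 and TRAJ37 was lower in Il2° than in wt Treg. It took 3.16%, 2.87%, 4.16% and 2.80% of the UMIs in wt libraries and 1.60%, 1.18%, 1.72% and 1.74% in Il2° libraries. In Il15° libraries it took 2.86%, 2.06%, 2.43% and 2.8996%. The Il2° values thus lie below those of both other genotypes without overlap. Against wt, 24 of the 476 pairs tested were lower without overlap, 1 of them with TRAJ37. Over 476 V–J pairs of all segments, edgeR gave TRAV4-3 with TRAJ37 a log2 fold change of −1.03 (SE 0.18) for Il2° over wt, a 0.489-fold level, with an adjusted p of 0.00525. It was 1 of 2 pairs that passed in the whole table (percent called 0.42), and the other was TRAV6-7 with TRAJ37, which rose. That other pair passed the filter on low counts only through the Il2° libraries, where it was high. DESeq2 called 16 of the 476 (percent called 3.36), the same pairs alone with TRAJ37. The most abundant TRAJ37 clonotype belongs to this pair and its lower share in Il2° Treg was known when TRAJ37 was chosen. With that clonotype left out, a setting added after seeing the data, the pair still fell with a log2 fold change of −0.79 (SE 0.18, adjusted p = 0.0451, edgeR). For Il15° over wt the log2 fold change was −0.28, and for Il15° over Il2° it was 0.77 (SE 0.23, adjusted p = 0.0848, edgeR).

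TRAV4-3 was also lower in Il2° Treg among the other J segments. It held 25.7% ± 1.7 of the UMIs with other J segments (SD, n = 4 each) in wt Treg, 19.2% ± 1.9 in Il2° Treg and 24.5% ± 2.3 in Il15° Treg, with an exact 2-sided Mann-Whitney p of 0.0286 for Il2° against wt. Of the 38 pairs of TRAV4-3 with another J segment that were tested, 32 had a negative log2 fold change in Il2° over wt, with a median of −0.43, and 0 passed the threshold in edgeR (10 had an unadjusted p under 0.05). The value with TRAJ37 was lower than that of 34 of these pairs. Within TRAJ37, TRAV4-3 held 55.2% ± 4.4 of the UMIs in wt Treg, 35.0% ± 5.0 in Il2° Treg and 53.5% ± 6.2 in Il15° Treg, and these shares include the clonotype whose lower share was known. The excess over other J segments was 29.5 ± 3.5 percentage points in wt and 15.8 ± 4.8 in Il2° Treg. With that clonotype left out, a setting added after seeing the data, TRAV4-3 held 44.3% ± 3.1, 29.6% ± 2.9 and 45.4% ± 5.6 of the TRAJ37 UMIs, and the excess was 18.6 ± 2.9 points in wt and 10.4 ± 2.2 in Il2° Treg (exact Mann-Whitney test, 2-sided, p = 0.0286, not adjusted). As a ratio to the other J segments, with all clonotypes, the difference was −0.24 on the log2 scale, with an exact p of 0.2. Adjusted over the 33 exact tests with all clonotypes, which were also added after seeing the data, the smallest p became 0.105. Without TRAV4-3 partners, a setting chosen after seeing the data, TRAJ37 as a whole had a log2 fold change of 0.15 in Il2° over wt (adjusted p = 0.493, edgeR), in place of −0.38 with them. Leaving out a part that is lower in Il2° Treg raises the value of the remainder, so this is a description.

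TRAV6-7 with TRAJ37 moved the other way. The pair took 0.0115%, 0.0293%, 0% and 0.0462% of the UMIs in wt libraries, where 0 of the 15977 UMIs of replicate 3 allows a share of up to 0.0188%. In Il2° libraries it took 0.158%, 0.113%, 0.390% and 0.184%, all above the highest wt library. In Il15° libraries it took 0.0111%, 0.0291%, 0.158% and 0.0807%, which overlap with both. Of the 476 pairs tested, 19 were higher in Il2° than in wt libraries without overlap, 2 of them with TRAJ37. The log2 fold change of TRAV6-7 with TRAJ37 in Il2° over wt was 3.29 (SE 0.63, adjusted p = 0.00636, edgeR). The pair passed the filter of at least 5 UMIs in at least 4 of 8 libraries only through the Il2° libraries, where it was high. It held 172 UMIs over the 12 libraries, of which the fit used those of wt and Il2° mice. Without Il2° replicate 3 or 4 the log2 fold change was 2.75 (adjusted p = 0.130) or 3.28 (adjusted p = 0.0820, edgeR). TRAV6-7 made up 0.396% ± 0.371 of the TRAJ37 UMIs (SD, n = 4 each) in wt Treg, 4.67% ± 2.52 in Il2° Treg and 1.57% ± 1.63 in Il15° Treg. Among other J segments its share was 1.23% ± 0.28, 1.39% ± 0.22 and 1.24% ± 0.22. All 11 tested pairs of TRAV6-7 with another J segment had a lower fold change in Il2° over wt than its pair with TRAJ37, from −0.32 to 1.29 on the log2 scale. For Il15° over Il2° the log2 fold change of the pair was −1.57 (SE 0.60, adjusted p = 0.218, edgeR).

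**Figure D3:**
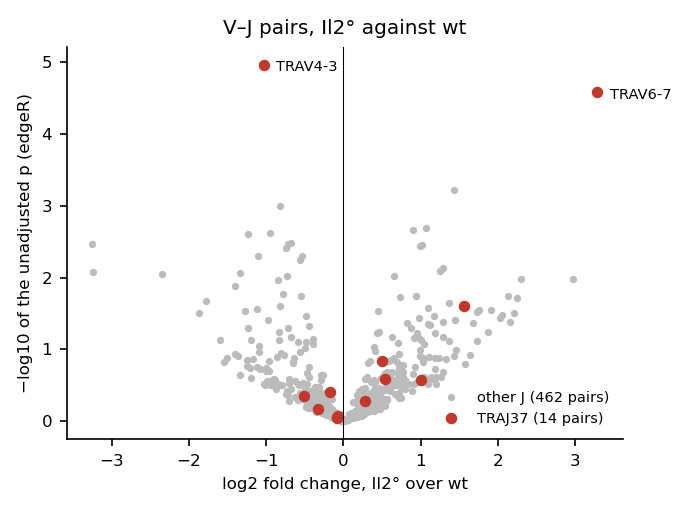
Log2 fold change in Il2° over wt Treg (x axis) and −log10 of the unadjusted p from edgeR (y axis) of the 476 V–J pairs tested. The 14 pairs with TRAJ37 are red, and the named ones, TRAV4-3 at −1.03 and TRAV6-7 at 3.29, are the 2 pairs of the table with an adjusted p under 0.05. The TRAV6-7 pair passed the filter on low counts only through the Il2° libraries, where it was high.

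The other pairs of TRAJ37 gave no call. Of the 14 tested, 2 passed in Il2° against wt, 0 in Il15° against wt (of 467 pairs, 0 passed) and 0 in Il15° against Il2° (of 429, 2 passed, percent called 0.466). In Il15° against wt, 1 TRAJ37 pair had an unadjusted p under 0.05, beside 24 of the 467 (5.14%). DESeq2 called 1 pair of that table (percent called 0.214), with another J segment. In Il15° against Il2°, 4 TRAJ37 pairs had an unadjusted p under 0.05, beside 52 of the 429 (12.1%). DESeq2 called 7 of the 429 pairs (percent called 1.63), among them TRAV4-3 with TRAJ37 (log2 fold change 0.75, adjusted p = 0.0122). TRAV12-3 with TRAJ37 held 1.24% ± 0.25 of wt libraries, 1.07% ± 0.16 of Il2° libraries and 1.05% ± 0.32 of Il15° libraries (SD, n = 4 each). Its log2 fold change in Il2° over wt was −0.18 (SE 0.21, adjusted p = 0.778, edgeR). The median log2 fold change of the 14 pairs in Il2° over wt was −0.07, beside 0.09 over all 476.

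Among single clonotypes, abundance was concentrated in a few. The first 10 clonotypes held 44.6% of all TRAJ37 UMIs and the first alone 15.3%. They all ended in GNTGKLIF and differed in the residues before it. Of these 10 clonotypes, 5 used TRAV4D-3, 3 used TRAV12-3, 1 used TRAV13D-1 and 1 used TRAV16N.

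The most abundant was TRAV4D-3 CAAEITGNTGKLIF. Its shares were 1.03%, 0.924%, 1.76% and 0.969% in wt, 0.211%, 0.193%, 0.397% and 0.564% in Il2° and 0.877%, 0.465%, 0.605% and 0.968% in Il15° libraries. All Il2° values lie below all wt values, which is given as a description. The third, TRAV4D-3 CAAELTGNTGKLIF, has L in place of I and took 0.346%, 0.318%, 0.507% and 0.225% in wt against 0.0678%, 0.123%, 0.150% and 0.131% in Il2° libraries. In Il15° libraries it took 0.305%, 0.276%, 0.214% and 0.258%, above all Il2° values. TRAV4D-3 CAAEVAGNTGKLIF was at 0.143% ± 0.057 (SD, n = 4 each) in wt Treg, 0.0282% ± 0.0149 in Il2° Treg and 0.0883% ± 0.0423 in Il15° Treg. By contrast, TRAV4D-3 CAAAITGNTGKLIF, with A in place of E, was at 0.162% ± 0.052, 0.100% ± 0.076 and 0.224% ± 0.138, and the ranges of wt and Il2° overlap. TRAV4D-3 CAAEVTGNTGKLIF was at 0.0910% ± 0.0548, 0.0643% ± 0.0403 and 0.158% ± 0.063, again with overlap.

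Of the clonotypes with TRAV12-3, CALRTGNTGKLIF was at 0.577% ± 0.195 (SD, n = 4 each) in wt Treg, 0.303% ± 0.062 in Il2° Treg and 0.366% ± 0.267 in Il15° Treg. In Il15° replicate 3 it was at 0.00930%, while the same CDR3 stood there under the copy TRAV12N-3, which differs from TRAV12-3 in 12 of 353 bases. With the copies merged the wt and Il2° libraries overlapped, and its log2 fold change in Il2° over wt was −0.50 (SE 0.30, adjusted p = 0.527, edgeR), in place of −0.90 (SE 0.32, adjusted p = 0.369) for TRAV12-3 alone. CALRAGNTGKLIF was at 0.109% ± 0.141, 0.125% ± 0.033 and 0.223% ± 0.086. In wt replicates 3 and 4 most or all of it stood under TRAV12N-3, at 0.0563% and 0.237%, and with the copies merged it was at 0.182% ± 0.110, 0.174% ± 0.041 and 0.223% ± 0.086. With TRAV12-3, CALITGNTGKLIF was at 0.0890% ± 0.0202, 0.108% ± 0.091 and 0.0805% ± 0.0025. The remaining 2, TRAV13D-1 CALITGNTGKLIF and a longer one with TRAV16N, were at 0.0827% ± 0.0482 and 0.0855% ± 0.0445 in wt against 0.146% ± 0.073 and 0.118% ± 0.081 in Il2° Treg.

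**Figure D4:**
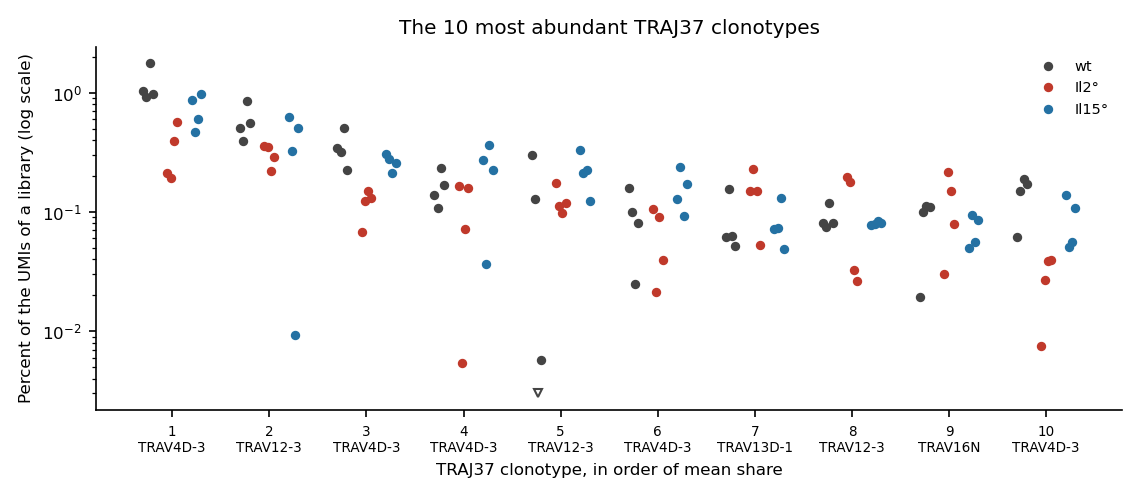
Percent of the UMIs of a library (y axis, log scale) for the 10 TRAJ37 clonotypes with the highest mean share, numbered in that order with their V segment, in wt, Il2° and Il15° mice. Each point is 1 mouse, and the open triangle at the bottom is a library with 0 UMIs. Clonotypes 1, 2, 3 and 10 are lower in every Il2° than in every wt mouse, as were 6.19% of the 452 clonotypes tested. With the V copies merged, clonotype 2 overlaps, reaching 0.490% in Il2° mice and starting at 0.393% in wt mice.

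Tested one by one, no TRAJ37 clonotype passed the threshold. In Il2° against wt 452 clonotypes of all J segments were tested, 28 of them with TRAJ37, and 0 passed in edgeR (percent called 0). Of the 28, 5 had an unadjusted p under 0.05, beside 47 of the 452 (10.4%). Of the 5, 4 were lower and 1 higher in Il2°, and the higher one was TRAV6D-7 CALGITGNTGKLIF. This clonotype passed the filter on low counts only through the Il2° libraries. DESeq2 called 6 of the 452 (percent called 1.33), of which 4 carried TRAJ37: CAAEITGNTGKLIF, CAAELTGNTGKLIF and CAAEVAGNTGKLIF with TRAV4D-3, all lower in Il2°, and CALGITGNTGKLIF with TRAV6D-7, which was higher. Of the 28, 4 were lower in every Il2° than in every wt library, beside 6.19% of the 452, and 1 was higher, beside 2.21%. The median log2 fold change of the 28 was −0.23, against 0.04 over the 452. In Il15° against wt 0 of 466 passed and 0 of the 27 with TRAJ37, of which 2 had an unadjusted p under 0.05, beside 19 of the 466 (4.08%). In Il15° against Il2° 0 of 352 passed and 0 of the 21 with TRAJ37, of which 3 had an unadjusted p under 0.05, beside 33 of the 352 (9.38%). DESeq2 called 5 of the 466 (percent called 1.07) and 3 of the 352 (percent called 0.852), 0 of them with TRAJ37. In Il2° against wt, edgeR without the filter on low counts called 2 of 16684 clonotypes (percent called 0.012) and with the V copies merged 1 of 493 (percent called 0.203), in both cases with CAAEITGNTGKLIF as the 1 TRAJ37 clonotype called. The lower share of this clonotype in Il2° Treg was known when TRAJ37 was chosen, so that its calls are a description.

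Near-identical CDR3 were then joined into families. A family holds clonotypes with the same V group, J segment and CDR3 length that are linked by single residue substitutions, each with at least 5 UMIs over the 12 libraries. TRAJ37 formed 108 families, of which 42 had at least 2 members and 66 were single. The family of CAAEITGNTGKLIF with TRAV4-3 had 46 members and 3961 UMIs, 38.6% of TRAJ37. Its residues from glycine at position 7 to the end did not vary, nor did the first cysteine and alanine. Position 4 was glutamate in 69.8% and alanine in 12.2% of its UMIs. Position 5 was isoleucine in 63.0%, leucine in 19.8% and valine in 11.9%, and position 6, the first residue of germline TRAJ37, was threonine in 89.1%. The family of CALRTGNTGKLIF with TRAV12-3 had 28 members and 2090 UMIs, with arginine in 76.6% and isoleucine in 16.1% at position 4 and threonine in 62.2% and alanine in 21.4% at position 5. The next families were much smaller: TRAV13-1 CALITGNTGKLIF (4 members, 308 UMIs), a TRAV16 family (2 members, 234 UMIs) and a second TRAV4-3 family with a shorter CDR3 (15 members, 216 UMIs).

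The family of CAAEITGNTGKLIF took 2.64% ± 0.655 of a wt library, 1.04% ± 0.30 of an Il2° library and 2.06% ± 0.33 of an Il15° library (SD, n = 4 each). The highest Il2° library had 1.31% and the lowest wt library 2.21%. Of the 422 families tested, 38 were lower in Il2° than in wt libraries without overlap, 2 of them with TRAJ37. The log2 fold change of the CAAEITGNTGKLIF family in Il2° over wt was −1.23 (SE 0.25, adjusted p = 0.0125, edgeR). It was −0.96 (adjusted p = 0.0424, edgeR) without the most abundant clonotype, a setting added after seeing the data. The lower share of that clonotype was known when TRAJ37 was chosen, so that the call with it is a description. Over 422 families of all J segments, 7 passed (percent called 1.66), and 2 of them were among the 20 TRAJ37 families tested. DESeq2 called 18 (percent called 4.27), the same 2 with TRAJ37 among them. When families were built regardless of TRAV, 0 of 193 passed in edgeR and 28 had an unadjusted p under 0.05. The other TRAJ37 family past the threshold was TRAV6-7 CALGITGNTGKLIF with 3 members, which differ in I, V or L before TGNTGKLIF. It held 3, 7, 0 and 8 UMIs in wt, 21, 15, 56 and 14 UMIs in Il2° and 2, 4, 17 and 11 UMIs in Il15° libraries. Its log2 fold change was 3.26 (SE 0.67, adjusted p = 0.0125, edgeR) in Il2° over wt. It passed the filter on low counts only through the Il2° libraries. Without Il2° replicate 3, which alone holds 56 of its 158 UMIs, the log2 fold change was 2.72 and the adjusted p 0.0808 in edgeR. Between Il15° and Il2° the TRAV4-3 family had a log2 fold change of 0.93 (SE 0.27, adjusted p = 0.0892, edgeR), and the TRAV6-7 family of −1.70 (adjusted p = 0.246, edgeR).

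The TRAV12-3 family did not pass. It took 1.13% ± 0.26, 0.991% ± 0.144 and 0.992% ± 0.287 of the libraries in wt, Il2° and Il15° Treg (SD, n = 4 each), a log2 fold change of −0.07 (SE 0.23, adjusted p = 0.883, edgeR) in Il2° over wt. The TRAV13-1, TRAV16 and second TRAV4-3 families were at 0.154% ± 0.066, 0.110% ± 0.027 and 0.114% ± 0.053 in wt, and at 0.210% ± 0.041, 0.142% ± 0.054 and 0.118% ± 0.008 in Il2° Treg. In Il15° against wt 0 of 436 families passed, and in Il15° against Il2° 0 of 379, with 0 of 19 and 0 of 16 TRAJ37 families. At an unadjusted p under 0.05 there were 1 and 4 of these TRAJ37 families. The share over all families is not given beside them, so these counts are not read as a result about TRAJ37. DESeq2 called 1 of the 436 (percent called 0.229) and 13 of the 379 (percent called 3.43), and in the latter the TRAV4-3 family was the 1 TRAJ37 family called. It was also called in edgeR without the filter on low counts, with 4 of 3038 families (percent called 0.132).

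The junctions differed with the V partner. The full 29 bases of the germline J part were kept in 71.6% of the TRAJ37 UMIs with TRAV4-3, in 16.0% of those with TRAV12-3 and in 36.3% of those with another V segment. In single libraries the range was 54.1% to 77.5% with TRAV4-3, 45.1% to 63.7% when the most abundant clonotype was left out, and 8.33% to 31.0% with TRAV12-3. TRAV4-3 and TRAV12-3 thus did not overlap, and no range over libraries was taken for the other V segments. With TRAV12-3, 1 base was missing in 30.1% and 3 bases in 27.1%. No base lay between the V and J parts in 35.4% of the UMIs with TRAV12-3 and in 9.44% with TRAV4-3, where a single base was most frequent with 39.4%. The mean CDR3 length was 13.7 residues with TRAV4-3, 13.04 with TRAV12-3 and 13.5 with other V segments.

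**Figure D5:**
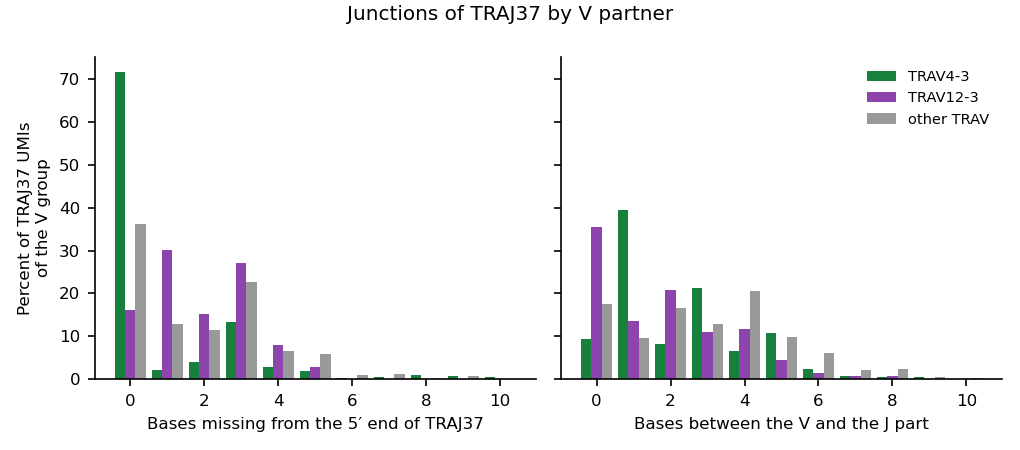
Bases missing from the 5′ end of germline TRAJ37 (left) and bases between the V and the J part (right), up to 10 bases, as percent of the TRAJ37 UMIs of a V group (y axis, from 0), pooled over the 12 libraries. The bar of TRAV4-3 at 0 missing bases reaches 71.6% and that of TRAV12-3 16.0%.

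Between the genotypes no junction value passed the threshold. The CDR3 of TRAJ37 was 13.56 ± 0.03 residues long (SD, n = 4 each) in wt Treg, 13.42 ± 0.09 in Il2° Treg and 13.51 ± 0.07 in Il15° Treg. The Il2° libraries all lay below the wt libraries (exact Mann-Whitney test, 2-sided, p = 0.0286), with an adjusted p of 0.2 over the 7 values of length and junction compared. The difference in mean length was −0.143 residues. Without the most abundant clonotype, whose lower share was known when TRAJ37 was chosen, it was −0.082 (exact Mann-Whitney p = 0.114). With each clonotype counted once it was −0.028 (exact Mann-Whitney p = 0.686). Bases between V and J numbered 2.39 ± 0.17 (SD, n = 4 each) in wt Treg, 2.59 ± 0.25 in Il2° Treg and 2.27 ± 0.09 in Il15° Treg. Junction residues were those whose codon lies wholly in neither the V nor the J part, also where no base lies between the parts. At least 1 of them was I, L, V or M in 60.2% ± 4.5, 52.2% ± 5.9 and 59.7% ± 1.8 of the UMIs. At least 1 was acidic in 9.22% ± 2.12, 7.98% ± 2.85 and 6.03% ± 2.22, and basic in 22.5% ± 4.3, 25.4% ± 2.2 and 22.1% ± 4.6. With 4 libraries against 4 the smallest exact p is 0.0286.

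Sharing between mice was wide for a few clonotypes. Of the 768 TRAJ37 clonotypes, 15 were found in all 12 libraries (1.95%), and these held 48.1% of the TRAJ37 UMIs. Among other J segments 159 of 19847 clonotypes were in all 12 libraries (0.801%), with 27.9% of the UMIs. The UMI shares of such clonotypes depend on the rule for presence. With at least 2 UMIs they were 30.4% for TRAJ37 and 25.6% for other J segments. With every library drawn down to 7625 UMIs they were 38.1% and 25.5%. At the other end, 422 TRAJ37 clonotypes were seen in 1 library. Present in all 4 mice of a genotype were 36 TRAJ37 clonotypes in wt, 28 in Il2° and 22 in Il15° mice. Of the 36 in wt, 16 were not present in all 4 Il2° mice (44.4%, against 55.5% for other J segments) and 19 not in all 4 Il15° mice (52.8% against 61.5%). Presence depends on depth: with every library drawn down to 7625 UMIs (mean of 20 draws) the numbers were 20.5 in wt, 21.9 in Il2° and 16.3 in Il15° mice.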

How the data were processed

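TCRα-seq was performed by the authors on 12 libraries, 1 per mouse, from RNA of 100000 sorted thymocytes. Per the study's methods, reads were filtered, collapsed by UMI with pRESTO (at least 2 reads per UMI), assigned to V and J segments with MiXCR and tabulated with VDJtools, whose versions are not given in the sources used here. The submitters' processing notes name mm10, the GRCm38 assembly used here for positions. The deposited tables give, for each CDR3 nucleotide sequence, a count of UMIs and a fraction of the library, computed by the authors. The deposited positions of the end of V and the start of J are scores counted in bases, of which only the V end was used. This end can lie past the germline V sequence, as in a TRAV4D-3 sequence with 16 V bases against 13 in the germline. Shares were recomputed from the counts as percent of all UMIs of a library, 199248 in all, and 90 duplicate rows were summed. Replicates are separate mice.

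Rows with TRAJ37 and an open frame were kept. V copies were merged by name for V–J pairs and families. The J part was the longest exact match to germline TRAJ37 from the 3′ end, with at least 15 bases. Counts of all J segments, V–J pairs, families or clonotypes were fitted for each pair of genotypes with edgeR 4.0.16 in R 4.3.3 (quasi-likelihood test, TMM, at least 5 UMIs in at least 4 of 8 libraries) and adjusted by Benjamini-Hochberg over the whole table, with a threshold of 0.05. The SE was derived from the test statistic. Shares of 4 against 4 libraries were compared by the exact 2-sided Mann-Whitney test and V partners by an exact sign-flip test over 12 libraries, with scipy 1.17.1. DESeq2 1.42.0 and limma 3.58.1 (on log2 of percent plus 0.01) were alternatives, with fits without TMM or filter, with copies merged, with each clonotype counted once and without each library. The tests were checked on simulated data. Named were the 10 clonotypes with the highest mean share, V groups with at least 5% of TRAJ37 UMIs, the 5 families with most UMIs, the 3 J segments most like TRAJ37 by Spearman's rho, and any member past the threshold. The TRAJ37 clonotypes, the lists and the tests were chosen with earlier results of these data known.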

Additional observations from a re-analysis of the deposited data

Results flagged for a closer look

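In groups of 4 libraries, 7 of the 81 sets of values examined held 1 library far from the other 3 by Dixon's test, where chance gives about 1 in 20. TRAV4D-3 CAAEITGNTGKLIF reached 1.76% in wt replicate 3, where the remaining wt libraries had 0.924% to 1.03%, and its family with TRAV4-3 was at 3.61% there, against 2.21% to 2.42%. TRAV12-3 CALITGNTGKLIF was also highest in wt replicate 3, at 0.119% against 0.0753% to 0.0808%. TRAV13D-1 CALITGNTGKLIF was at 0.155% in wt replicate 2, against 0.0519% to 0.0626%. The ninth clonotype by mean share, with TRAV16N, was low in wt replicate 1, at 0.0192% against 0.100% to 0.113%. The same CDR3 also stood there under TRAV16D/DV11, and with the copies merged it was at 0.0693% against 0.100% to 0.138%. The bases between V and J numbered 2.14 in Il15° replicate 3, against 2.31 to 2.33, and junctions with I, L, V or M made up 43.5% in Il2° replicate 2, against 53.9% to 56.0%. Out-of-frame rows, which no comparison used, held 112 TRAJ37 UMIs over the 12 libraries, from 1 to 21 in each.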

How the results depend on the processing

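Of 689 values recomputed under another setting, 600 kept their direction and their side of the threshold (or, for counts, stayed within 1.5 times), 5 lost and 23 gained a call, 38 changed sign and 23 moved. The cause was not tested. For the TRAJ37 share in Il2° over wt the log2 fold change was −0.36 with DESeq2, −0.38 without TMM and −0.37 without the filter on low counts, each past the threshold (adjusted p 0.0241, 0.0113 and 0.0336), the exact Mann-Whitney test gave −1.39 and −1.41 percentage points of all and of in-frame UMIs, and leaving out 1 library gave −0.43 to −0.26. It was −0.18 (adjusted p = 0.372) without the most abundant clonotype, whose lower share in Il2° Treg was known when TRAJ37 was chosen. With each clonotype counted once it was −0.07 (adjusted p = 0.954). Without TRAV4-3 partners, chosen after seeing the data, it was 0.15, and −0.31 in Il15° over Il2°. The excess of TRAV4-3 in TRAJ37 without the most abundant clonotype differed by 2.23 points in Il15° over wt. Of TRAJ37 clonotypes in Il2° against wt, DESeq2 called 4, merged copies 1, no filter 1 and leaving out 1 library 0 to 1. Of V–J pairs, leaving out 1 library gave 1 to 2 calls in Il2° against wt, and 0 to 1 in Il15° against Il2°, where DESeq2 gave 1. Of families it gave 1 to 2 and 0 to 1. In Il2° against wt families regardless of TRAV gave 0 calls, and in Il15° against Il2° DESeq2 and no filter gave 1 each. Replicate numbers did not pair the samples, which are different mice: deviations of same-numbered libraries correlated between −0.492 and 0.405 over J segments. With the replicate block, 0 families were called in Il2° against wt (TRAV4-3 −1.26, adjusted p = 0.0531; TRAV6-7 3.17, adjusted p = 0.0678, edgeR), 1 family and 1 V–J pair in Il15° against Il2°, and 2 V–J pairs in Il2° against wt, as without it.

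Sharing fell with stricter presence: with at least 2 UMIs, 7 clonotypes were in all 12 libraries, 23 in all wt, 18 in all Il2° and 12 in all Il15° mice, and drawn down to equal depth 9.75 were in all 12 and 20.45 in all wt. Among values that passed no test, these changed sign. With each clonotype counted once, CDR3 length in Il15° over wt differed by 0.0156 residues, bases between V and J in Il2° over wt by −0.118, bases missing by −0.273 (Il2° over wt), −0.213 (Il15° over wt) and 0.0600 (Il15° over Il2°), the aliphatic share by 3.52 points (Il15° over wt) and the aromatic share by 2.31 (Il15° over Il2°). Without the most abundant clonotype, bases missing differed by −0.0588, −0.0186 and 0.0402 in the same order, the basic share by −0.516 (Il2° over wt), the aliphatic share by 2.04 and the aromatic share by 0.0921. TRAV12-3 with TRAJ37 in Il15° over Il2° was −0.0069 with DESeq2 and −0.0308 with the replicate block, and its family was 0.0412 without the filter. Leaving out 1 library gave, in Il15° over wt, −2.19 to 1.11 for the aliphatic, −0.139 to 0.852 for the aromatic and −1.98 to 1.72 for the basic share and −0.0271 to 0.114 for bases missing, in Il15° over Il2° −0.944 to 0.466 for the aromatic share and −0.180 to 0.0144 for bases missing, and in Il2° over wt −0.0612 to 1.35 for the aromatic share. It gave −0.20 to 0.10 for TRAV12-3 with TRAJ37 and −0.23 to 0.0814 for its family in Il15° over Il2°, and −0.16 to 0.0049 for that family in Il2° over wt.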

Other observations

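A second 3′ end of the J part recurred among the rows assigned to TRAJ37. It differs from the germline in adjacent bases, shown in capitals, and reads NTRKLIF in place of NTGKLIF.
second 3′ end: aatacTAgaaaactcatcttt
germline TRAJ37: aatacCGgaaaactcatcttt
It was found in 46 UMIs (0.449% of TRAJ37) over 26 nucleotide sequences, 10 libraries and 16 V segments, of which TRAV14-1 had the most with 13 UMIs. Its source was not tested.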
